A study of Mus musculus with 18 samples.

Results

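The genes described here are 36 that are read mostly in B cells, T cells and natural killer (NK) cells. They comprise 8 B cell genes, 16 T cell genes and 12 genes of NK and cytotoxic cells, named by symbol, and they include antigen receptor chains, co-receptors, granule proteins and a few transcription factors as well as surface proteins. A gene was measured if a probe set of the array was annotated to its symbol alone, and where a gene had several, the brightest on average stood for it. By that rule 33 of the 36 were measured among 18194 genes in all. The annotation used here gives Lck and Tcf7 no probe set of their own, and Klrb1c shares its probe set with another gene, so these 3 were not analysed here.

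RNA of right lung lobes was hybridised to Affymetrix whole-genome mouse arrays. The animals were female B6C3F1 mice, a cross often used in rodent cancer studies. There were 18 mice in 6 groups of 3, with 1 array per mouse, and each mouse was 5 weeks old at the start, exposed for 13 weeks and 18 weeks old when sampled. Feed control mice (animals 27, 28 and 29) ate untreated feed. Given in feed on 7 days a week were 1,5-naphthalenediamine (NDA) at 2000 ppm (animals 2, 4 and 5), N-(1-naphthyl)ethylenediamine dihydrochloride (NEDD) at 2000 ppm (animals 12, 14 and 15) and pentachloronitrobenzene (PCNB) at 8187 ppm (animals 16, 18 and 20). Corn oil control mice (animals 22, 24 and 25) received corn oil at 5 ml/kg by gavage on 5 days a week, and 2,3-benzofuran was given in corn oil at 240 mg/kg on the same schedule (animals 6, 8 and 10). The labels name NDA and 2,3-benzofuran as positive lung carcinogens and NEDD and PCNB as negative. Values are log2 signals, listed in the order of the animal numbers just given, and each difference is a treatment mean minus its control mean with its standard error (n = 3 animals per group).

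A B cell senses antigen through its surface immunoglobulin, which signals through the paired chains Cd79a and Cd79b. When a B cell becomes an antibody-secreting plasma cell, it turns down many surface genes and makes immunoglobulin and secretory pathway proteins instead. A T cell recognises peptides through a receptor that signals through the CD3 chains, with Cd4 or Cd8 as co-receptor. NK cells, which are abundant in mouse lung, use activating and inhibitory receptors such as Ncr1 and Klrd1 in place of an antigen receptor. NK cells and cytotoxic T cells kill by releasing perforin and granzymes, so the cytotoxic genes here are shared by both. In whole lung RNA, fewer cells of a type and less RNA per cell cannot be told apart.

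Among the members, the widest difference from a control was in a cytotoxic gene, Gzma, and for 4 cytotoxic genes the promoter sequence is printed so that the regulatory letters stand beside the values. Each sequence is the 250 bases before the transcription start in RefSeq (GRCm38.p6), read 5′ to 3′ on the gene's own strand, at chr13:113100982-113101231 on the minus strand for Gzma, chr14:56262335-56262584 on the minus strand for Gzmb, chr7:4337465-4337714 on the plus strand for Ncr1 and chr7:43436888-43437137 on the plus strand for Nkg7. Capitals mark matches, on either strand, to a RUNX motif (TGTGGT), a T-box motif (GGTGTGA) or an AP-1 motif (TGANTCA). These are binding letters of factor families known to act in cytotoxic lymphocytes.
Gzma: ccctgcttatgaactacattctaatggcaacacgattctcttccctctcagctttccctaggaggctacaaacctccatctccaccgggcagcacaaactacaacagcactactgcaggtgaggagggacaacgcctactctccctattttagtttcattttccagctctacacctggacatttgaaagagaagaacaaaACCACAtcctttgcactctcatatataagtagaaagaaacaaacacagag
Gzmb: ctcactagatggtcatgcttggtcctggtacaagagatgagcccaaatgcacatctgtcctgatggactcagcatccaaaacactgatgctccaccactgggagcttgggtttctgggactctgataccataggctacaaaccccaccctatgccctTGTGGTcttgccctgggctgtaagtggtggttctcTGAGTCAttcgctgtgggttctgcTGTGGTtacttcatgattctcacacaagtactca
Ncr1: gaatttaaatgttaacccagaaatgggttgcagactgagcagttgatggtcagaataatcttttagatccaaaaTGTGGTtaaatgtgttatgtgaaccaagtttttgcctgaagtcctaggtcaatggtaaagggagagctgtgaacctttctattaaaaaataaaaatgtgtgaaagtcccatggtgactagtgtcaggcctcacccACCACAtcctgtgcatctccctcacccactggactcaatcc
Nkg7: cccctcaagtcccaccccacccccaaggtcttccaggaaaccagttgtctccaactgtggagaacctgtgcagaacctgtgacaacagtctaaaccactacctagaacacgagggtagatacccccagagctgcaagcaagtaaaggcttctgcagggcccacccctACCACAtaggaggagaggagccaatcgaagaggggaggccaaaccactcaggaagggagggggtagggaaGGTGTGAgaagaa

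Promoters were on hand for 23 of the 33 measured members. The RUNX letters occurred in 5 of 8 NK and cytotoxic promoters (Gzma, Gzmb, Ncr1, Nkg7 and Prf1), in 0 of 5 B cell and 0 of 10 T cell promoters, and in 14.2% of the promoters of 27025 genes. The T-box letters occurred in Nkg7 and Gzmk, 2 of the 8, against 3.31% of all promoters. The AP-1 letters were found in Gzmb alone of the 23, against 6.87% of all promoters. An ETS motif (GAGGAAG) occurred in Zap70 alone, against 10.4% of all promoters, and the octamer (ATTTGCAT) of immunoglobulin promoters in 0 of the 23, against 1.61%. No motif searched overlapped another in the promoters printed. These matches describe the letters of the windows and say nothing of binding in these lungs.

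Signals on all arrays had medians between 5.68 and 5.80, and RNA integrity numbers were 8.3 to 9.4 on the 15 arrays whose labels give one. The lung epithelial markers were measured on every array, with 11 of 12 listed genes tested, with a summed linear signal of 118983 to 134858 per array. The benzofuran 10 array stood apart from the rest, with a score of 46.6 on the first principal component against -11.8 to 7.81 on the other 17 arrays. Its actin probe sets also differed most between the 3' and 5' ends, by 0.91 on the log2 scale. That 3' to 5' difference was 0.33 to 0.43 in NDA mice and 0.58 to 0.73 in feed control mice, without overlap. With it as a covariate, the lineage medians for NDA and the NDA differences of Cd79b, Cd3d, Cd3e and Ccr7 are given below. For other single genes, such as Gzma, Klrd1, Gzmb and Cd3g, the NDA difference with the covariate is not given. Benzofuran 10 lay far above the other benzofuran mice (0.40 and 0.35) and so weighs heavily on the slope of that covariate. Values with the covariate thus cannot separate RNA quality from treatment.

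A gene was tested if its probe set lay above the 40th percentile of its array on at least 3 arrays, which held for 30 of the 33 measured members (7 B cell, 12 T cell and 11 NK and cytotoxic) and 13435 genes in all. Of the 33, 27 lay above that percentile on all 18 arrays. The regulatory T cell genes Foxp3 and Ctla4 and the B cell factor Pax5 lay above it on 0 arrays, so their signals, with means of 3.78, 4.52 and 4.51, were not tested. Cd27, Gzmk and Tbx21 lay above it on 6, 8 and 4 arrays, and their low signals leave less room for a difference to show.

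**Figure D1:**
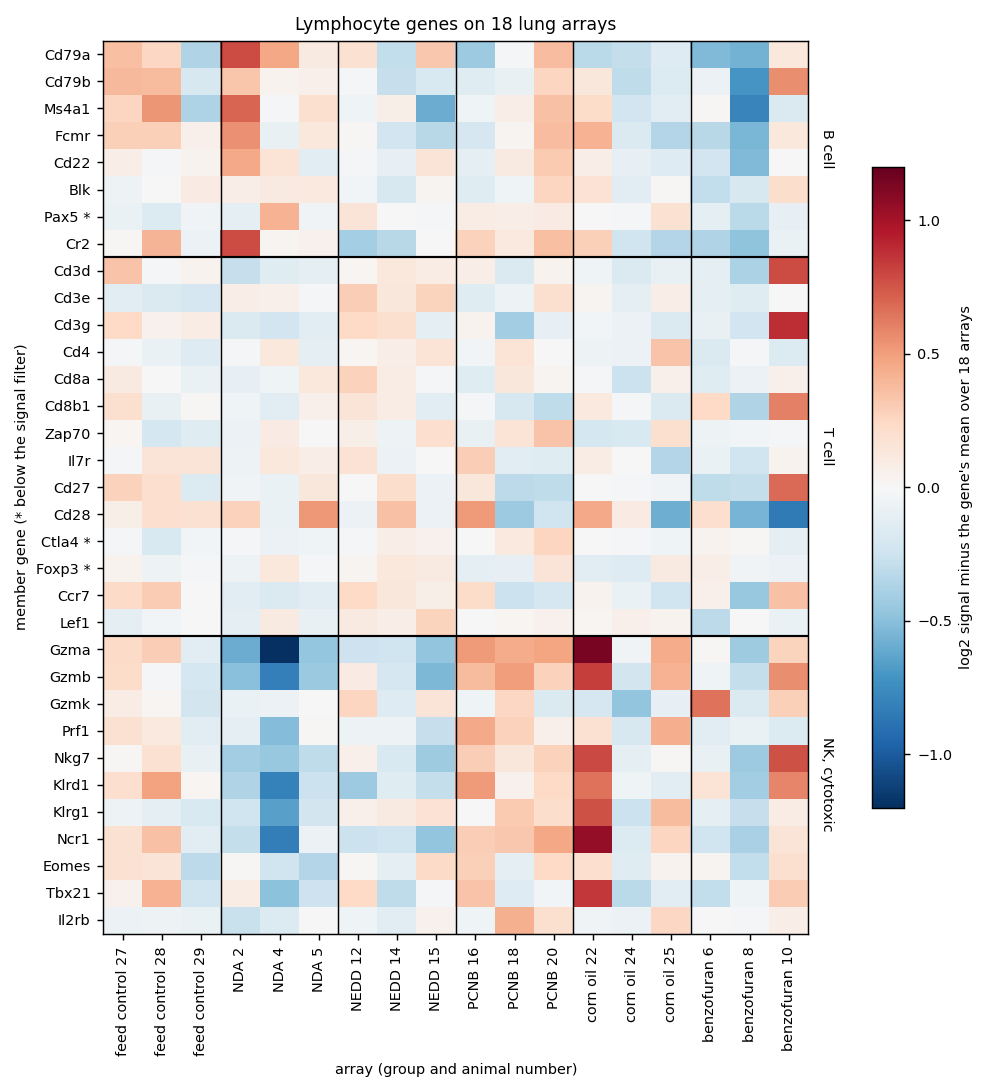
Log2 signal of each of the 33 measured members (rows, grouped as B cell, T cell, and NK and cytotoxic genes) on each of the 18 arrays (columns, by group and animal number), as the difference from the gene's mean over all arrays. An asterisk marks the 3 genes below the signal filter; the cytotoxic genes are mostly blue in the 3 NDA columns and mostly red in the 3 PCNB columns and in corn oil 22, and benzofuran 10 stands out in Cd3d, Cd3g, Cd8b1 and Cd27.

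No member passed limma's test at an adjusted p under 0.05 (Benjamini-Hochberg over 13435 genes) in any of the 8 comparisons made. With NDA 1.37% of all genes were called, with NEDD 0.0223%, with PCNB 0.0149% and with benzofuran 1.73%. At an unadjusted p under 0.05, limma gave 1 member higher and 4 lower with NDA, which is 16.7% of the 30 against 10.3% of all genes. It gave 1 higher and 1 lower with NEDD (all genes 9.44%), 1 higher and 0 lower with PCNB (2.97%), and 1 higher and 2 lower with benzofuran (19.5%). The smallest adjusted p of any member against its control was 0.0934 with NDA (Gzma), 0.323 with NEDD (Cd3e) and 0.125 with benzofuran (Gzmk). Mice of one group varied more in these genes than in most, with a median residual SD of 0.263 over the 30 members against 0.163 over all genes tested, and 24 of the 30 lay above that gene median. Arrays of treatment and control failed to overlap in 9 of the 30 members with NDA, where 21.1% of all genes did, in 8 with NEDD (19.3%), in 5 with PCNB (8.54%) and in 1 with benzofuran (17.4%).

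Among the NK and cytotoxic genes, all 11 tested lay below feed control in NDA-fed mice, with a median difference of -0.30. In the same comparison 55.9% of all genes lay below 0, and the median over all genes was -0.02. With NEDD 7 of the 11 lay below, median -0.19, where 54.2% of all genes did. With PCNB 10 of the 11 lay above, median 0.20, where 43.6% of all genes lay above 0 and 56.4% below. With benzofuran 10 of the 11 lay below the corn oil control, median -0.15, where 39.8% of all genes lay below 0. Leaving out 1 array at a time moved the NDA median between -0.46 (without feed control 29) and -0.18 (without NDA 4), and the PCNB median between 0.11 (without feed control 29) and 0.26. The NEDD median lay between -0.28 (without feed control 29) and -0.10 (without NEDD 15), and was -0.12 without feed control 27. None of the single genes was called, so these counts describe the arrays and are not tests.

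Gzma, a granule protease of NK and cytotoxic T cells, gave the largest member difference of the feed treatments. Its signals were 10.25, 10.32 and 9.90 in feed control mice and 9.43, 8.83 and 9.57 in NDA mice, so the groups did not overlap. They were 9.78, 9.78 and 9.55 with NEDD and 10.54, 10.47 and 10.50 with PCNB. NDA mice were thus lowest and PCNB mice highest and closest together among the feed groups. The difference with NDA was -0.88 ± 0.24, 1.85-fold lower (adjusted p = 0.0934 in limma). That p ranged from 0.0455 to 0.492 over 15 alternative settings, with a call in 2 of them. With NEDD the difference was -0.46 ± 0.24 (adjusted p = 0.552), with arrays again all below the controls, and with PCNB 0.34 ± 0.24, all above. Corn oil control mice gave 11.17, 9.99 and 10.48 and benzofuran mice 10.04, 9.61 and 10.30, which overlap, with a difference of -0.56 ± 0.24 (adjusted p = 0.211).

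Gzmb, the granzyme that triggers death of the target cell, followed the same order in the feed groups. Feed control signals were 6.86, 6.61 and 6.42, NDA signals 6.13, 5.81 and 6.19, NEDD signals 6.73, 6.43 and 6.10, and PCNB signals 7.01, 7.14 and 6.91. The NDA mice lay wholly below the controls (-0.58 ± 0.24, adjusted p = 0.364) and the PCNB mice wholly above (0.39 ± 0.24), while NEDD overlapped (-0.21 ± 0.24). In the gavage groups the signals were 7.47, 6.41 and 7.05 with corn oil and 6.58, 6.34 and 7.19 with benzofuran, a difference of -0.27 ± 0.24 with overlapping arrays. Prf1, which forms the pore through which granzymes act, differed by -0.26 ± 0.16 with NDA, -0.19 ± 0.16 with NEDD, 0.20 ± 0.16 with PCNB and -0.27 ± 0.16 with benzofuran, all with overlapping arrays. Nkg7, a granule membrane protein, was at -0.43 ± 0.24 with NDA, where its arrays did not overlap the controls, and at 0.20 ± 0.24 with PCNB.

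Gzmk, a granzyme found largely in T cells, did not share that order. Its difference with NDA was -0.01 ± 0.17, from signals of 5.11, 5.04 and 4.79 in feed control mice and 4.93, 4.94 and 5.02 in NDA mice. NEDD signals were 5.27, 4.86 and 5.17 and PCNB signals 4.97, 5.26 and 4.85, both overlapping the controls and reaching above them. It was the 1 member of its group above the corn oil control with benzofuran (0.51 ± 0.17, adjusted p = 0.125). The benzofuran signals were 5.67, 4.84 and 5.30 against 4.81, 4.54 and 4.92 with corn oil, so benzofuran 8 fell within the control range. Without benzofuran 8 the difference was 0.73 and the gene was called (adjusted p = 0.0169), within a range of 0.0157 to 0.532 over the 14 alternatives in which it was tested.

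Of the receptors, Klrd1 (CD94, which pairs with NKG2 chains) was 7.43, 7.72 and 7.26 in feed control mice, 6.87, 6.42 and 6.98 with NDA and 6.80, 7.09 and 6.95 with NEDD. Both treatments lay wholly below the controls, by -0.71 ± 0.23 with NDA (adjusted p = 0.196) and -0.52 ± 0.23 with NEDD (adjusted p = 0.511). PCNB signals of 7.75, 7.29 and 7.47 overlapped the controls (0.03 ± 0.23). Klrd1 was 7.89, 7.18 and 7.11 with corn oil and 7.40, 6.82 and 7.82 with benzofuran, with wide overlap (-0.05 ± 0.23).

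Ncr1 (NKp46), the receptor that best marks mouse NK cells, read 7.09, 7.27 and 6.78 in feed control mice and 6.63, 6.09 and 6.84 with NDA, where NDA 5 reached into the control range (-0.53 ± 0.24, adjusted p = 0.445). With NEDD it read 6.65, 6.67 and 6.44, below all controls (-0.46 ± 0.24), and with PCNB 7.21, 7.23 and 7.37 (0.23 ± 0.24). With corn oil it was 7.97, 6.75 and 7.17 and with benzofuran 6.67, 6.52 and 7.07 (-0.54 ± 0.24, adjusted p = 0.227). The corn oil 22 array held the highest Ncr1 signal of all 18.

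Klrg1, an inhibitory receptor of mature NK and effector T cells, was 6.28, 6.23 and 6.16 in feed control mice and lower in each NDA mouse, at 6.10, 5.69 and 6.12 (-0.25 ± 0.19). It was higher in each NEDD mouse, at 6.41, 6.46 and 6.52 (0.24 ± 0.19), and in each PCNB mouse, at 6.35, 6.65 and 6.55 (0.29 ± 0.19). Its signals were 7.11, 6.09 and 6.72 with corn oil and 6.24, 6.07 and 6.44 with benzofuran (-0.39 ± 0.19). None of these 4 differences was called (adjusted p from 0.258 to 1 in limma). Klrg1 thus lay above the feed control with NEDD, where Klrd1, Ncr1 and Gzma lay below it.

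The transcription factors that set the NK programme showed no called difference either. Eomes was at -0.20 ± 0.16 with NDA, 0.04 ± 0.16 with NEDD, 0.13 ± 0.16 with PCNB and -0.06 ± 0.16 with benzofuran. Tbx21 (T-bet) read 4.86, 5.23 and 4.57 in feed control mice, 4.89, 4.31 and 4.56 with NDA and 5.15, 4.65 and 4.77 with PCNB, differences of -0.30 ± 0.26 and -0.03 ± 0.26. Il2rb, the shared receptor chain for IL-2 and IL-15, was at -0.07 ± 0.12 with NDA and 0.26 ± 0.12 with PCNB, the 1 member with an unadjusted p under 0.05 there. Its other probe set gave -0.31 with NDA and -0.01 with PCNB.

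**Figure D2:**
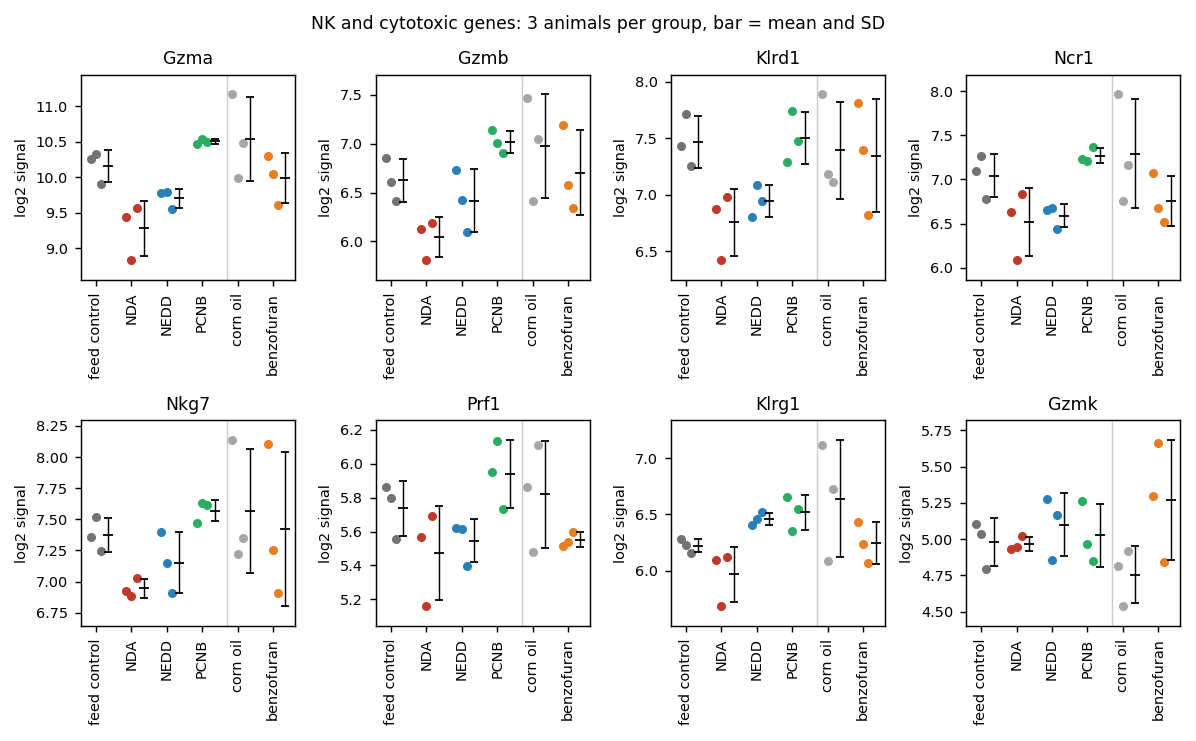
Log2 signal of 8 NK and cytotoxic genes (one panel each, own vertical scale), 1 point per animal, with the group mean and SD (n = 3) as the bar beside the points and a grey line between the feed and gavage groups. The NDA points of Gzma, Gzmb, Klrd1, Nkg7 and Klrg1 lie below all feed control points, and the 3 PCNB points of Gzma span only 10.47 to 10.54.

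Counting arrays rather than means, 5 of the 11 NK and cytotoxic genes had all NDA mice below all feed control mice, where 11.6% of all genes tested did. With PCNB 4 of 11 had all mice above, where 3.67% of all genes did, and with NEDD 3 of 11 had all mice below, where 12.1% did. With benzofuran 0 of 11 separated in either direction. The mean of the 11 genes, each centred on its own mean over all arrays, was -0.34 ± 0.20 (SD, n = 3) with NDA, -0.12 ± 0.08 with NEDD, 0.23 ± 0.04 with PCNB and 0.04 ± 0.17 in feed control mice. It was 0.18 ± 0.38 with corn oil and 0.01 ± 0.27 with benzofuran. Corn oil 22 was the highest array of all, at 0.57, and without it the benzofuran median was -0.03 with 5 of 11 genes above 0.

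The count of NK and cytotoxic genes above feed control with NDA was 0 or 1 of those tested over 15 alternatives, which include leaving out each mouse. With PCNB it was 7 to 11 of 11, and 6 of 6 at the stricter signal filter. With NEDD it was 1 to 5, and the count above the corn oil control with benzofuran was 0 to 5. With the actin 3' to 5' difference as a covariate, the NDA median was -0.23 with 1 of 11 above 0, the NEDD median was -0.01 with 5 of 11 above 0, and the PCNB median was 0.26 with 11 of 11 above 0. Lung endothelial markers lay in the same direction with NDA, with 10 of 10 below feed control (median -0.25) and a summed linear signal of 17595 to 18726 against 19654 to 21896. None of the 10 was called (limma, 0 higher and 2 lower at an unadjusted p under 0.05, where 5.19% of all genes were lower). Of 11 lung epithelial markers 9 lay below feed control with NDA (median -0.09), with sums of 118983 to 125674 against 128925 to 134858, and none was called (1 higher and 2 lower at that p). Their part in the NK values was not tested.

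The direction of the B cell genes with NDA varied with the fit. Of 7 tested, 5 lay above feed control and 2 below, with a median of 0.13. Without NDA 2, which had the highest signal of its group for 6 of the 7 (all but Blk), 2 of the 7 lay above and the median was -0.05. With the actin 3' to 5' difference as a covariate, 7 of 7 lay above and the median was 0.21. With NEDD all 7 lay below feed control (median -0.33), and 0 to 3 lay above over the alternatives. That median lay between -0.46 (without feed control 29) and -0.14 (without NEDD 15, or without feed control 28), and was -0.17 with the actin covariate. With PCNB 3 of 7 lay above (median -0.01), and with benzofuran 1 of 7 lay above the corn oil control (median -0.20).

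Cd79a, a signalling chain of the B cell receptor, read 7.82, 7.70 and 7.09 in feed control mice, 8.24, 7.92 and 7.57 with NDA, 7.64, 7.16 and 7.78 with NEDD and 7.02, 7.44 and 7.82 with PCNB. All 4 ranges overlap, and the differences were 0.37 ± 0.24 with NDA (adjusted p = 0.657), -0.01 ± 0.24 with NEDD and -0.11 ± 0.24 with PCNB. It was 7.13, 7.17 and 7.31 with corn oil and 6.93, 6.89 and 7.58 with benzofuran (-0.07 ± 0.24). Its partner Cd79b had signals of 8.66, 8.65 and 8.08 in feed control mice and 8.60, 8.32 and 8.34 with NDA (-0.04 ± 0.23, and 0.21 with the actin covariate). Cd79b read 8.26, 8.00 and 8.09 with NEDD (-0.35 ± 0.23) and 8.13, 8.18 and 8.53 with PCNB (-0.18 ± 0.23). In the gavage groups it was 8.41, 7.97 and 8.11 with corn oil and 8.21, 7.56 and 8.83 with benzofuran, where the treated mice spanned more than the controls on both sides.

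Ms4a1 (CD20) was 7.98, 8.25 and 7.36 in feed control mice, 8.42, 7.71 and 7.92 with NDA, 7.67, 7.79 and 7.13 with NEDD and 7.67, 7.80 and 8.08 with PCNB. The groups overlap throughout, with differences of 0.15 ± 0.25, -0.33 ± 0.25 and -0.01 ± 0.25. The second Ms4a1 probe set gave -0.12, -0.78 and -0.39. With corn oil Ms4a1 was 7.94, 7.50 and 7.59 and with benzofuran 7.74, 6.93 and 7.55, a difference of -0.27 ± 0.25 and the lowest of the B cell genes there.

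Fcmr, the receptor for the Fc part of IgM, was 7.73, 7.73 and 7.50 in feed control mice and 7.45, 7.21 and 7.11 with NEDD. It was the 1 B cell gene whose NEDD mice lay wholly below the controls (-0.40 ± 0.21, adjusted p = 0.554). It read 7.98, 7.35 and 7.56 with NDA (-0.02 ± 0.21) and 7.24, 7.47 and 7.81 with PCNB (-0.14 ± 0.21). Cr2 (CD21), the complement receptor of follicular and marginal zone B cells, was 5.78, 6.17 and 5.69 in feed control mice and 6.55, 5.79 and 5.82 with NDA (0.17 ± 0.20). It was 5.36, 5.44 and 5.76 with NEDD (-0.37 ± 0.20) and 6.04, 5.89 and 6.13 with PCNB (0.14 ± 0.20). The inhibitory receptor Cd22 and the kinase Blk were at 0.13 ± 0.15 and 0.09 ± 0.13 with NDA and -0.03 ± 0.15 and -0.07 ± 0.13 with NEDD.

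**Figure D3:**
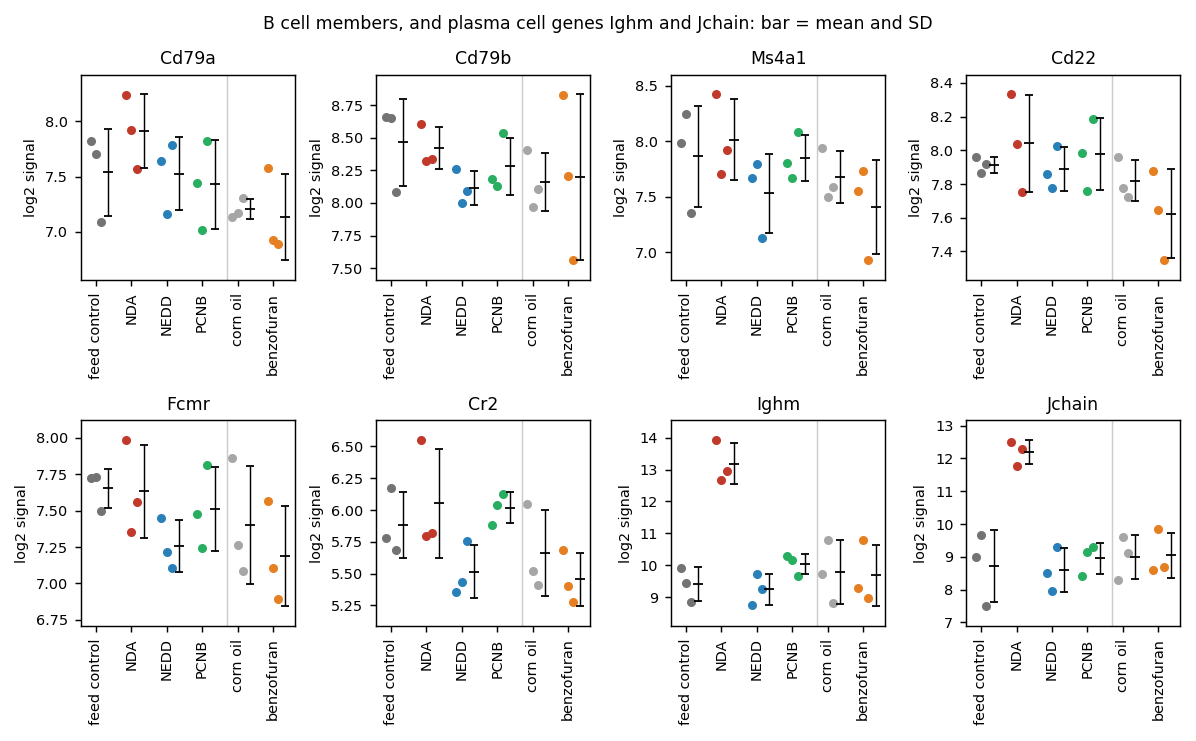
Log2 signal of 6 B cell members and, for comparison, of the immunoglobulin heavy chain Ighm and the joining chain Jchain, 1 point per animal with the group mean and SD (n = 3) as the bar and a grey line between the feed and gavage groups; each panel has its own vertical scale. The NDA points of the 6 members overlap the feed control points, whereas those of Ighm and Jchain lie above every other point in their panels.

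The plasma cell genes, which were not members, gave a different picture in the same NDA mice. Of 14 tested, 7 were called higher and 0 lower, with a median of 0.66. The list was chosen with earlier results of these data known, so this count describes it and is not a test. Ighm was 13.92, 12.67 and 12.97 with NDA against 9.91, 9.46 and 8.86 in feed control mice (3.78 ± 0.48, adjusted p = 0.000109 in limma). Jchain, which joins IgM and IgA into polymers, rose by 3.46 ± 0.48, Mzb1, a chaperone of antibody secretion, by 1.88 ± 0.27, and the light and heavy chain genes Iglv1 and Igha by 2.80 ± 0.47 and 2.75 ± 0.50. Edem1 and Derl3, which clear misfolded proteins from the endoplasmic reticulum, rose by 0.98 ± 0.15 and 0.75 ± 0.18. With NEDD, PCNB and benzofuran 0 of the 14 were called by limma, and 0 had an unadjusted p under 0.05. Among all genes 1.12% were called higher with NDA. A further list of 17 other B cell genes had 0 called with NDA (3 higher and 0 lower at an unadjusted p under 0.05, median 0.09). In limma 5.11% of all genes were higher at that p.

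The T cell genes lay near their controls as a group. Of 12 tested, 5 lay above feed control with NDA (median -0.03), 5 with NEDD (median -0.01) and 4 with PCNB (median -0.11), and 7 lay above the corn oil control with benzofuran (median 0.03). Over the alternatives the NDA median stayed between -0.07 and 0.04, and the benzofuran median between -0.11 and 0.07. The lowest benzofuran value was the one without benzofuran 10. With the actin covariate 9 of 12 lay above feed control with NDA (median 0.04) and 11 of 12 with NEDD (median 0.14). Benzofuran 10 had the widest actin difference and the highest Cd3d, Cd3g and Cd27 signals. The covariate fit was not repeated without it, so how far these counts rest on that array was not tested.

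The chains of the CD3 complex were read by separate probe sets. Cd3e read 7.31, 7.28 and 7.25 in feed control mice and 7.75, 7.59 and 7.72 with NEDD, wholly above (0.41 ± 0.10, adjusted p = 0.323). Over 15 alternatives that p ranged from 0.0221 to 0.920, with a call in 1, the fit with array weights. Cd3e was also higher in each NDA mouse, at 7.54, 7.51 and 7.43 (0.21 ± 0.10, adjusted p = 0.444), and overlapped the controls with PCNB, at 7.31, 7.39 and 7.64 (0.16 ± 0.10). With corn oil it was 7.48, 7.33 and 7.53 and with benzofuran 7.34, 7.31 and 7.45 (-0.08 ± 0.10). Cd3e varied little within groups, with a residual SD of 0.098, larger than in 8.65% of the genes tested.

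Cd3d was 8.36, 8.00 and 8.06 in feed control mice, 7.74, 7.87 and 7.91 with NDA, 8.05, 8.15 and 8.11 with NEDD and 8.10, 7.85 and 8.07 with PCNB. The NDA mice lay wholly below the controls (-0.30 ± 0.20, adjusted p = 0.657), whereas those of Cd3e lay above. With the actin covariate the Cd3d difference with NDA was 0.01, and that of Cd3e 0.21. Benzofuran 10, which weighs heavily on the slope of that covariate, also had the highest Cd3d signal. The part of RNA quality in the Cd3d difference therefore cannot be told from this fit. Cd3g, whose transcription start lies 1355 bases from that of Cd3d in RefSeq, read 7.33, 7.15 and 7.18 in feed control mice and 6.92, 6.86 and 6.96 with NDA (-0.31 ± 0.20), again wholly below. Cd3g was 7.33, 7.28 and 6.99 with NEDD (-0.02 ± 0.20) and 7.14, 6.68 and 7.00 with PCNB, wholly below the controls (-0.28 ± 0.20). In the gavage groups Cd3d was 7.97, 7.85 and 7.93 with corn oil and 7.92, 7.64 and 8.80 with benzofuran, and Cd3g was 7.07, 7.03 and 6.92 and then 7.01, 6.87 and 7.98. The benzofuran 10 array was the highest of the 18 for both, and their differences of 0.20 ± 0.20 and 0.28 ± 0.20 became -0.14 and -0.06 without it.

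The co-receptors differed little on the probe sets used. Cd4, of helper T cells, was 6.20, 6.14 and 6.07 in feed control mice, 6.20, 6.35 and 6.11 with NDA (0.08 ± 0.11), 6.25, 6.30 and 6.39 with NEDD (0.17 ± 0.11, wholly above) and 6.18, 6.39 and 6.22 with PCNB (0.13 ± 0.11). It was 6.16, 6.15 and 6.56 with corn oil and 6.05, 6.20 and 6.06 with benzofuran (-0.19 ± 0.11). Cd8a, of cytotoxic T cells, was 5.58, 5.48 and 5.39 in feed control mice and 5.37, 5.42 and 5.60 with NDA (-0.02 ± 0.11). It was 5.75, 5.56 and 5.45 with NEDD (0.10 ± 0.11), 5.32, 5.61 and 5.50 with PCNB (-0.00 ± 0.11), 5.45, 5.21 and 5.53 with corn oil and 5.32, 5.40 and 5.54 with benzofuran (0.02 ± 0.11). Other Cd8a probe sets, above the filter on 17 and 14 arrays, gave 0.22 and -0.25 with NDA and 0.33 and -0.04 with NEDD. The direction for Cd8a thus depends on the probe set. Cd8b1, the partner of Cd8a, was at -0.08 ± 0.17, -0.00 ± 0.17, -0.21 ± 0.17 and 0.18 ± 0.17 with NDA, NEDD, PCNB and benzofuran.

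Ccr7, which brings naive T cells to lymph nodes, gave the lowest T cell difference with NDA (-0.32 ± 0.16, adjusted p = 0.538), which was -0.09 with the actin covariate. Its feed control signals were 6.94, 7.01 and 6.70, all above the NDA signals of 6.58, 6.53 and 6.58. It was 6.94, 6.84 and 6.77 with NEDD and 6.93, 6.44 and 6.50 with PCNB. Il7r, a survival receptor of naive and memory T cells, was at -0.04 ± 0.14, -0.06 ± 0.14, -0.09 ± 0.14 and -0.01 ± 0.14 with the 4 treatments in the order NDA, NEDD, PCNB and benzofuran. Lef1, a transcription factor of naive T cells, was at 0.02 ± 0.10, 0.20 ± 0.10, 0.07 ± 0.10 and -0.18 ± 0.10 in that order, with NEDD mice wholly above and benzofuran mice wholly below their controls.

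Zap70, the kinase that binds the phosphorylated CD3 chains, had its widest difference on the probe set used with PCNB (0.25 ± 0.12). Its PCNB signals were 7.77, 8.02 and 8.20 against 7.88, 7.65 and 7.71 in feed control mice. The 2 other Zap70 probe sets gave -0.06 and -0.07 with PCNB. They gave 0.33 and -0.19 with NDA and 0.35 and -0.08 with benzofuran, where the probe set used gave 0.12 and 0.03. The co-stimulatory receptor Cd28 had the widest residual SD of the T cell members (0.403). It was 6.25, 6.38 and 6.36 in feed control mice and 6.11, 6.53 and 6.11 with NEDD (-0.08 ± 0.28), and 6.64, 6.28 and 5.60 with corn oil against 6.38, 5.62 and 5.33 with benzofuran (-0.40 ± 0.28). Cd27, another co-stimulatory receptor, was at -0.10 ± 0.20, -0.06 ± 0.20, -0.27 ± 0.20 and 0.05 ± 0.20 with NDA, NEDD, PCNB and benzofuran, and its highest signal was on benzofuran 10 (5.63).

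**Figure D4:**
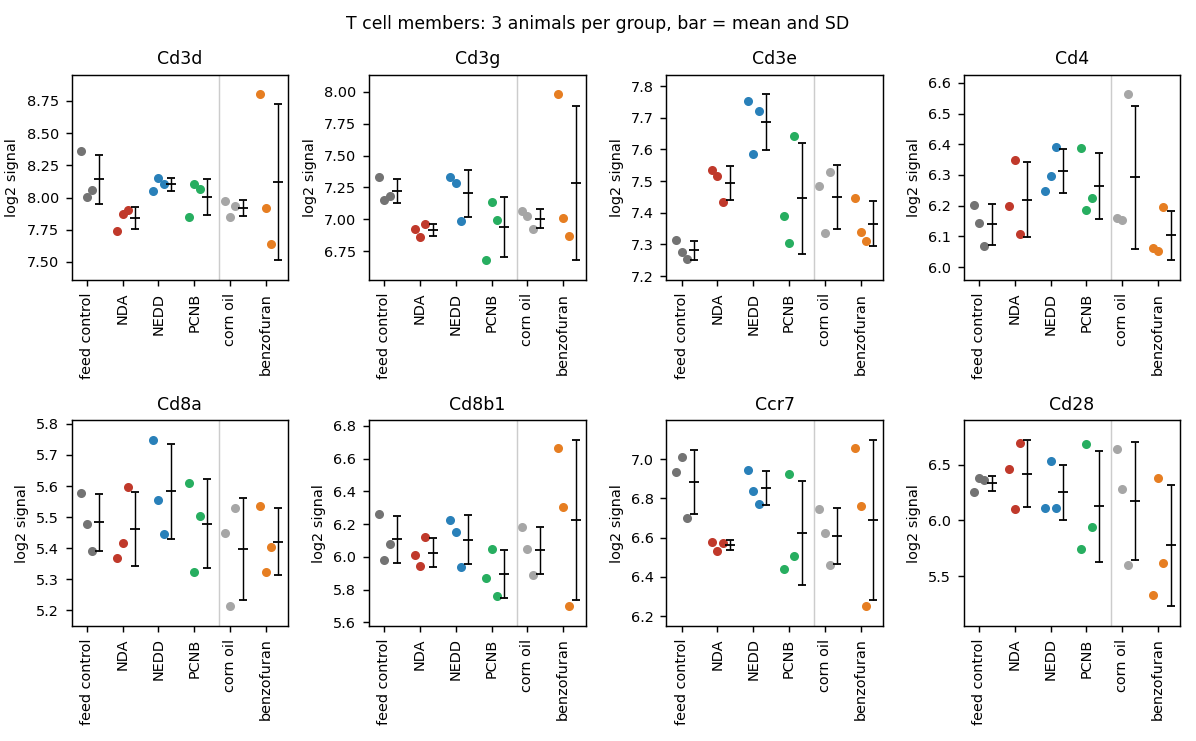
Log2 signal of 8 T cell members, 1 point per animal with the group mean and SD (n = 3) as the bar and a grey line between the feed and gavage groups; each panel has its own vertical scale. NDA and NEDD points lie above the feed control points for Cd3e while NDA points lie below them for Cd3d and Cd3g, and 1 benzofuran animal is far above the rest for Cd3d and Cd3g.

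**Figure D5:**
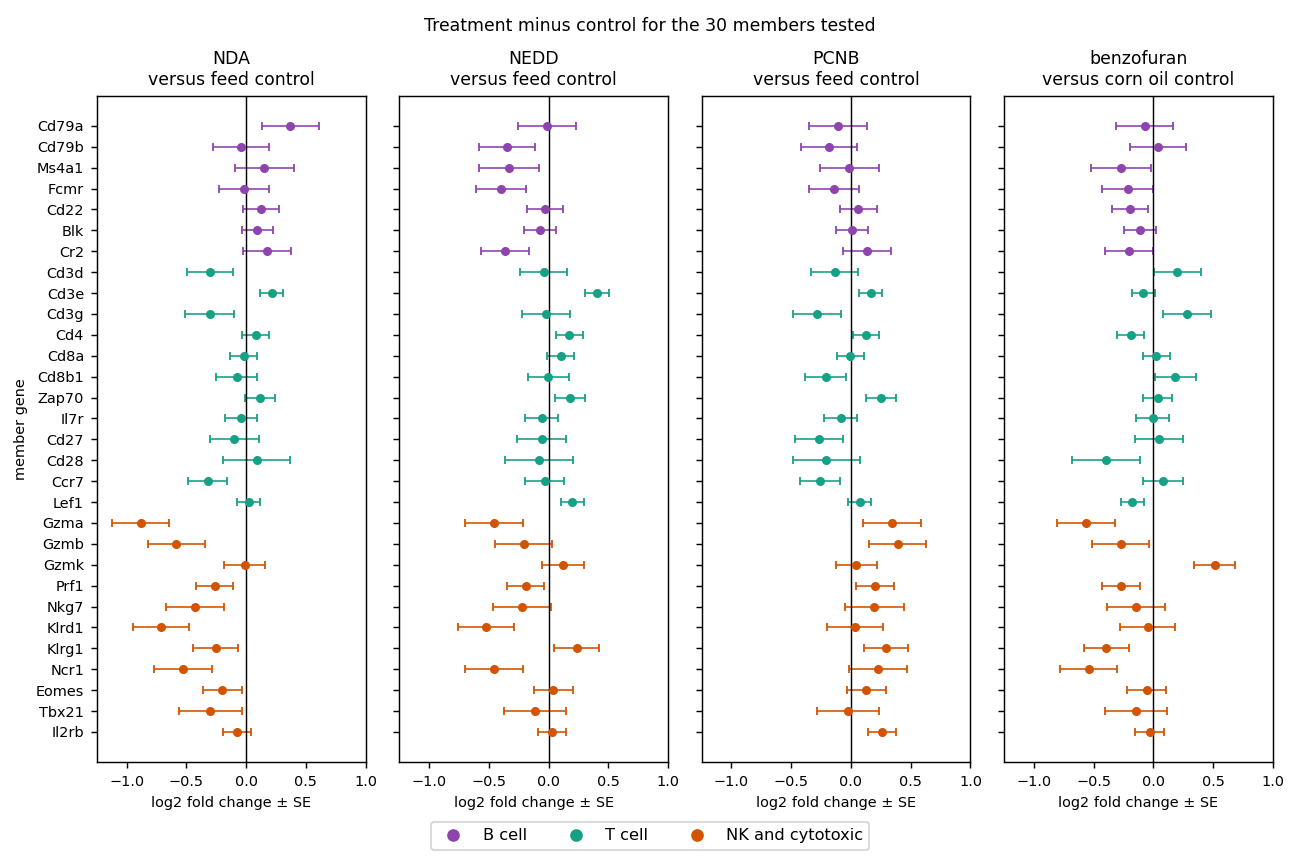
Log2 fold change of each treatment against its own control for the 30 tested members, with the standard error of limma's fit as the bar; colours separate B cell, T cell, and NK and cytotoxic genes. With NDA all 11 NK and cytotoxic genes lie left of 0 and with PCNB 10 of 11 lie right of it, and no single gene was called.

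NDA and NEDD are both naphthalene amines given at 2000 ppm in feed, which is matched by weight. NDA carries an amino group on each ring, while NEDD carries an ethylenediamine chain on a single ring and was given as a salt. This pair was the 1 pair of related compounds compared, and each gene's p was adjusted over all 13435 genes. None of the 30 members was called between them (1 higher and 1 lower at an unadjusted p under 0.05 in limma), where 2.12% of all genes were called and 12.2% had an unadjusted p under 0.05. All 7 B cell genes were higher with NDA, with a median of 0.38, where 47.1% of all genes were. The widest were Cr2 at 0.54 (95% interval 0.11 to 0.96, adjusted p = 0.242) and Ms4a1 at 0.48 (-0.04 to 1.01), and the arrays of 3 of the 7 did not overlap, against 13.2% of all genes in that direction.

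All 11 NK and cytotoxic genes were lower with NDA than with NEDD, median -0.19, where 52.9% of all genes were. Klrg1 was at -0.49 (95% interval -0.88 to -0.10, adjusted p = 0.252) and was the 1 gene of the 11 whose arrays did not overlap. Gzma was at -0.43 (-0.94 to 0.08) and Ncr1 at -0.07 (-0.58 to 0.44), and both intervals include 0. Of the T cell genes 2 of 12 were higher (median -0.11), with Cd3e at -0.19 (-0.40 to 0.01), and the arrays of Ccr7, Cd3d, Cd3e and Cd3g did not overlap, lower with NDA, as held for 10.8% of all genes. The plasma cell genes were called in 7 of 14, all higher with NDA, and of the other B cell genes Pou2af1, a co-activator of immunoglobulin transcription, by 1.63 ± 0.28 and the complement regulator Cd55 by 0.84 ± 0.16.

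The positive and negative chemicals were compared by averaging the effects of NDA and benzofuran and subtracting the averaged effects of NEDD and PCNB. A single chemical can move such an average, so it does not test whether NDA and benzofuran share a difference. Of the 30 members 0 were called and 6 had an unadjusted p under 0.05 in limma, all lower. In this comparison 3.49% of all genes were called and 18.8% had such a p, 5.55% lower and 13.3% higher. Klrg1 was nearest to the threshold at -0.59 ± 0.16 (adjusted p = 0.0538 in limma), and Gzma was at -0.67 ± 0.21 (adjusted p = 0.0913) and Gzmb at -0.52 ± 0.21 (adjusted p = 0.184). Klrg1 was called when PCNB 16, benzofuran 10 or corn oil 24 was left out, 1 member each time except without corn oil 24. Gzma was then called too (adjusted p = 0.0217, in a range of 0.0217 to 0.165 over 26 alternatives). Leaving out any other single array, including corn oil 22, gave no called member. Corn oil 22 held the highest Klrg1 signal of its group (7.11), and the Klrg1 class difference without that array is not given. Of the 11 NK and cytotoxic genes 10 lay below 0, median -0.27, against 44.3% of all genes. Without corn oil 22 that median was -0.22. Lef1, Cd3e and Cd4 were the other members with an unadjusted p under 0.05, at -0.22 ± 0.08, -0.22 ± 0.08 and -0.20 ± 0.10.

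Set directly against each other, the NDA and benzofuran effects differed in 0 of the 30 members (1 higher and 1 lower at an unadjusted p under 0.05 in limma, all genes 9.35%, and 0.29% of all genes called). The NK and cytotoxic median was -0.15 with 8 of 11 genes lower for NDA, where 63.2% of all genes were, and -0.51 without corn oil 22. Cd3e was at 0.30 ± 0.14 and Gzmk at -0.52 ± 0.25 (adjusted p = 0.528 and 0.531). For the controls themselves, corn oil against feed gave 0 members called, with 1 member higher (Klrg1, 0.42 ± 0.19) and 0 lower at an unadjusted p under 0.05, where 2.02% of all genes had such a p and 0% were called. Of the NK and cytotoxic genes 9 of 11 were higher with corn oil (median 0.12), and without corn oil 22 5 of 11 were (median -0.06). Of the B cell genes 1 of 7 and of the T cell genes 4 of 12 were higher with corn oil, medians -0.22 and -0.10, where 58.3% of all genes were lower.

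Genes of the same lineages outside the members were counted in lists. Of 13 other NK and cytotoxic genes tested, 12 lay below feed control with NDA (median -0.25), 10 with NEDD (median -0.14) and 5 with PCNB (median 0.11), and 9 lay below corn oil with benzofuran (median -0.07). Of all genes, 55.9% lay below 0 with NDA, 54.2% with NEDD, 56.4% with PCNB and 39.8% with benzofuran. None of the 13 was called in these 4 comparisons (with NDA 0 higher and 5 lower at an unadjusted p under 0.05). Among all genes 5.11% were higher and 5.19% lower with NDA at that p in limma. Of 16 other T cell genes 0 were called with NDA (0 higher and 1 lower at an unadjusted p under 0.05, median -0.11). Of 23 antigen receptor signalling genes 0 were called with NDA (1 higher and 0 lower at that p, median -0.05), and in the comparison of treatment classes Pik3cd, a lymphocyte PI3-kinase subunit, was lower by limma's test (-0.68 ± 0.17, adjusted p = 0.0349).

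Of 15 pan-leukocyte genes 0 were called with NDA (0 higher and 0 lower at an unadjusted p under 0.05, median -0.05), and of 10 lymphocyte homing and follicle genes 0 (1 higher and 1 lower, median 0.06). Among the markers of other cells, 2 of 12 alveolar macrophage genes rose with NDA, Marco by 1.15 ± 0.16 and Ctsk by 0.57 ± 0.11, and 1 fell with NEDD, Marco by 1.04 ± 0.16. Of 9 neutrophil genes Cd177 rose with NDA by 3.47 ± 0.23, while the median of that list was -0.13. Of 9 monocyte and dendritic genes 0 were called by limma with NDA (0 higher and 1 lower at an unadjusted p under 0.05, median -0.18). The same held for 3 tested thymocyte genes (0 and 0 at that p, median -0.16) and 2 red cell genes (1 higher and 0 lower, median 0.99). The part of these cells in the member values was not tested.

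For 8 members the array holds other probe sets on which at least 3 arrays passed the filter, 10 in all, and these give a second reading. With NDA 4 of the 10 had the opposite sign to the probe set used, with NEDD 3, with PCNB 6 and with benzofuran 4. For Cd22 both gave 0.13 or 0.14 with NDA and -0.20 or -0.22 with benzofuran. For Prf1 the second probe set gave 0.27 with NDA where the first gave -0.26, so the direction for Prf1 depends on the probe set. For the 5 NK genes with the widest NDA differences (Gzma, Klrd1, Gzmb, Ncr1 and Nkg7), the array holds 1 probe set each.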

How the data were processed

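RNA of the right lung lobe of 18 mice was measured, 1 array each (Trizol and RNeasy purification, 10 µg of RNA, biotin label, per the labels' protocols). The authors deposited 1 log2 value per probe set and array. Their base was judged from the range, 2.48 to 14.78. How the probe signals were summarised and normalized is not given in the sources used here. Values were kept as deposited. Detection calls were not used here. Precision is limited by having 3 arrays a group, and an exact permutation of 3 against 3 cannot give a p below 0.1. Each array is a separate animal per the labels, so p-values rest on the spread between animals of a group.

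Of 45101 probe sets, 34958 had 1 symbol in the platform annotation and 932 several, and 34754 were matched by gene identifier to RefSeq GRCm38.p6. Only those with 1 symbol were used. All 18 arrays entered a single limma model (version 3.58.1, under R 4.3.3) that estimates a mean for each group and leaves 12 residual degrees of freedom, with moderated two-sided tests (eBayes). For each of the 8 comparisons, the 13435 p-values were adjusted together by the Benjamini-Hochberg method, and calls needed an adjusted p under 0.05. The procedure was tested on simulated data. Alternatives changed the normalization, filter, probe set rule, array weights, prior, samples in the fit and RNA quality covariate, or left out each array.

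The members and gene lists were chosen with earlier results of these data known. Per-array values are given for a set of defining genes and for the member with the highest and the lowest difference per treatment and lineage. A contrast of NDA with PCNB was tried after the NK values were seen and dropped, since a pair chosen for its difference allows no test. The promoters and motifs were also chosen with the values known.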

Additional observations from a re-analysis of the deposited data

How the results depend on the processing

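No paired analysis was possible because no animal number occurs in more than 1 group. Each result was refitted under up to 26 alternatives, 137 refits of the 8 counts of called members in all, and 13 of these gave a call. With array weights 2 members were called with NDA (Gzma and Klrd1), 1 with NEDD (Cd3e), 1 with benzofuran (Gzmk), 1 between NDA and NEDD (Cd3e) and 5 between treatment classes (Cd3e, Gzma, Gzmb, Klrg1 and Lef1). The fit on only the groups compared called 1 with NDA (Gzma). Between classes 1 was called (Klrg1) with the actin 3' to 5' covariate and with the filter at the 60th percentile. Leaving out 1 array gave 0 to 1 called with benzofuran (1 without benzofuran 8, Gzmk, and 1 without corn oil 24, Klrg1) and 0 to 2 between classes, and 0 in the other 6 comparisons.

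Of 411 list medians refitted, 8 moved by more than the spread between replicates. The NK and cytotoxic median was -0.56 with NDA at the 60th percentile filter, where 6 genes were tested, and -0.40 with benzofuran under array weights. Leaving out 1 array it ranged from -0.37 to -0.0277 with benzofuran and from -0.51 to -0.0138 for the NDA effect minus the benzofuran effect. The T cell median under the actin covariate was 0.14 with NEDD, -0.0041 with PCNB and 0.0848 for the NDA effect minus the benzofuran effect, and it ranged from -0.11 to 0.0554 with benzofuran when 1 array was left out. The filter leaves the single differences as they were, so the first of these medians moved through which genes were left. Genes of lower signal dropped out, with NDA differences from -0.01 (Gzmk) to -0.30 (Tbx21). For the rest the cause was not tested.

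Of 1545 single gene values followed for 93 gene results, 82 changed sign, in 26 results; none of these was called either way, and 4 moved by more than 1 residual SD. Such changes were first counted as reversals, and then, after they were seen, by their size, since an uncalled sign has no direction. A further 10 gained a call and 0 lost one. The fit on only the groups compared was not run for the class comparison, in which all 6 groups enter. Low signals of Cd27, Gzmk and Tbx21 limit what their arrays can show.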
